A study of Mus musculus with 6 samples.

Results

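The genes described here are 40 mouse genes whose products carry secretory proteins into the endoplasmic reticulum (ER), fold them there, return failed ones to the cytosol for degradation, or sense their misfolding. They were chosen by function and matched to the deposited table by their GENCODE M21 symbols. Of the 40, 38 had a row among the 20894 genes of the table, and 34 passed the filter on low counts among 10802 tested genes. The study sequenced poly-A RNA of mouse liver in 2 groups of 3 samples. All animals carried the Irf3LSL-2D allele, from which an active form of the antiviral transcription factor IRF3 is made after Cre removes a stop cassette. The IRF3-2D group received AAV8-TBG-Cre and the Ctrl group AAV8-TBG-GFP, both adeno-associated virus vectors driven by the hepatocyte promoter TBG. Both groups were then given 3 g/kg of ethanol intraperitoneally and liver was taken 2 h later, so the allele and the ethanol are shared and no group without ethanol was analysed here. An effect of the Cre or GFP protein cannot be told apart from one of the allele. Age and sex are not given in the labels, and the labels do not tie each sample to a mouse of its own, so every p-value rests on sample-to-sample spread that may be technical.

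Proteins bound for secretion thread through the Sec61 channel into the ER, where Hspa5 (BiP), its cofactors and the disulfide isomerases fold them. Chains that fail are selected by lectins and mannosidases and passed back to the cytosol by ER-associated degradation (ERAD), at a complex built around the ligase Syvn1 (Hrd1) and its partner Sel1l. The sensors Ern1 (IRE1) and Atf6 read the load of unfolded protein and switch on many of these same genes, a response of weight in hepatocytes, which secrete most plasma proteins.

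The sequence through which Atf6 and Xbp1 are known to act on this gene family, the ER stress response element (ERSE), stood in the promoters of 7 of the 33 members with a window in the RefSeq table (GRCm38.p6, from 250 bases before to 50 after each start). The element is CCAAT, 9 bases of any kind and CCACG, read on both strands. Across all genes with a window in the RefSeq table it was found in 37 of 27025, or 0.137%. Since the element is known from this gene family, its larger share among the members is a description and no independent result. The examples below are those of tested members, and the one of Herpud1 is the related ERSE-II (ATTGG, 1 base of any kind and CCACG). Capitals mark the matched element, and each run is written along the plus strand, which is the coding strand of all of these genes.
Hspa5: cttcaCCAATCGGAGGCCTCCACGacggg
Pdia6: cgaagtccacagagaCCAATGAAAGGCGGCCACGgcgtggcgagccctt
Dnajc3: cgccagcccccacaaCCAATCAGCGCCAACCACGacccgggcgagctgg
Syvn1: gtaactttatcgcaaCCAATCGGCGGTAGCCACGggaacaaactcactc
Creld2: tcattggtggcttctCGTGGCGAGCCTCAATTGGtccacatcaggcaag
Herpud1: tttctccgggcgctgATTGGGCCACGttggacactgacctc

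These runs lie at chr2:34772020-34772048 (Hspa5), chr12:17266476-17266524 (Pdia6), chr14:118937812-118937860 (Dnajc3), chr19:6046517-6046565 (Syvn1), chr15:88819505-88819553 (Creld2) and chr8:94386362-94386402 (Herpud1). The element of Creld2 runs in the reverse direction and the other ones forward. ERSE was also found in the windows of Derl3 and Hsp90b1, which were left out of the test for low counts. ERSE-II was found in Herpud1 and Dnajb11, 2 of the 33 members with a window, against 0.0444% of all genes with a window. It shares CCACG with ERSE, and its ATTGG is CCAAT read on the other strand. The shorter unfolded protein response element, TGACG followed directly by TGG, shares CCACG with both on the other strand, and was in no member window against 0.676% of all windows. An IRF element, GAAA, 2 bases of any kind and GAAA, was also in no member window against 3.44% of all windows. At shares this low few or no matches would come up in 35 member windows, so neither absence shows a lack among the members. A match is a run of letters and no measure of binding, and the absence of one speaks only of this window.

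IRF3-2D liver had less RNA of a subset of these genes, and none of the 34 tested members passed the test for a higher level. The 9 lower members were Sel1l, Herpud1, Atf6, Dnajc3, Creb3l3, Edem1, Sec61a1, Ssr4 and Edem2, at 26.5% of the tested members, where 13.1% of all tested genes were called lower and 13.2% higher. Calls are at an adjusted p under 0.05 in edgeR's quasi-likelihood test, with p-values adjusted over all 10802 genes. In the higher direction 1 member, Sec63, had an unadjusted p under 0.05, DESeq2 called that gene and limma-voom called 0. The median log2 fold change of IRF3-2D over Ctrl was −0.21 over the 34 members, from −1.20 to 0.29 and below 0 in 29, beside 0.03 over all tested genes. In 16 of the 34 all IRF3-2D libraries lay below all Ctrl libraries, a pattern that 21.2% of all tested genes showed. In 1 member, Sec63, they lay above, which 23.7% of all tested genes did.

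**Figure D1:**
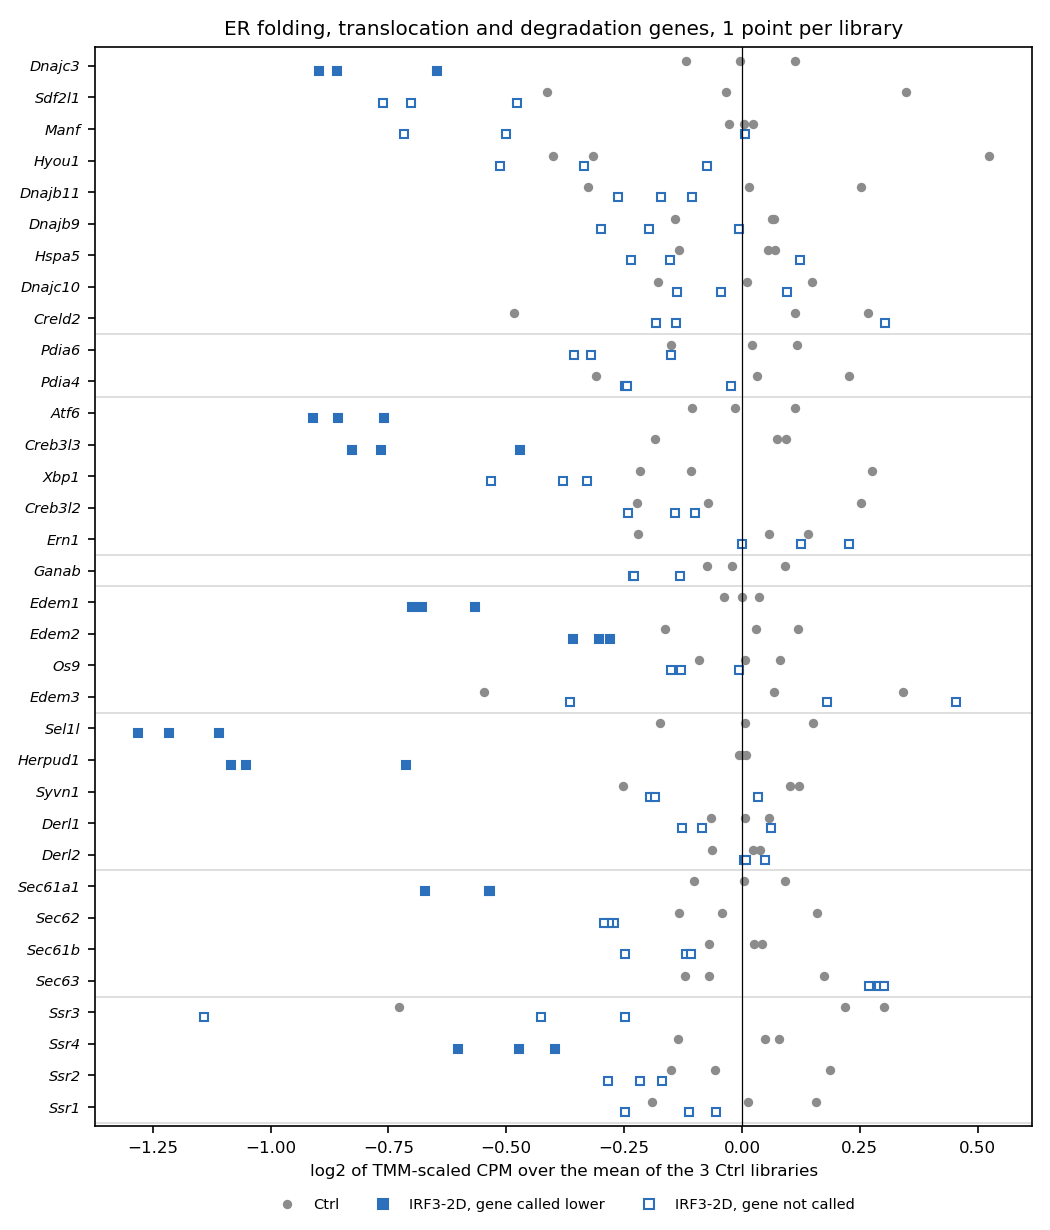
Level of each of the 34 tested members in each library, as log2 of scaled CPM (counts at a common library size) over the mean of the 3 Ctrl libraries (x axis), grouped by role from chaperones at the top to the translocon-associated complex at the bottom. Grey circles are Ctrl libraries, blue squares IRF3-2D libraries, filled where the gene was called lower: the 9 filled genes run from Sel1l at a log2 fold change of −1.20 to Edem2 at −0.31.

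How many members were called rested on the scaling between libraries. Ctrl libraries held 13940893 to 14830629 counts, IRF3-2D libraries 12054096 to 13606973, and TMM scaling, which was used here, gave factors of 0.822 to 0.879 and 1.12 to 1.23. With library totals alone the median of all genes moved from 0.03 to 0.49 on the log2 scale, 41.7% of all genes were called higher and 5.29% lower. Among the members Sel1l, Herpud1, Atf6 and Dnajc3 were then still called lower, and Derl1, Derl2, Dnajc10, Ern1, Hspa5, Os9, Sec61b, Sec63 and Syvn1 were called higher. The members' median stood 0.24 below that of all genes under TMM and 0.25 below it with library totals, where the members' median was 0.24. A change of scaling moves all genes by nearly the same amount. The near-equal differences were thus fixed in advance and are no second support. As a part of each library the members' counts made up 0.507% to 0.547% of the total in Ctrl, against 0.566% to 0.599% in IRF3-2D. Levels are in CPM (counts brought by edgeR to a common library size, with TMM factors), per gene and not per length, so they compare libraries and not genes.

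**Figure D2:**
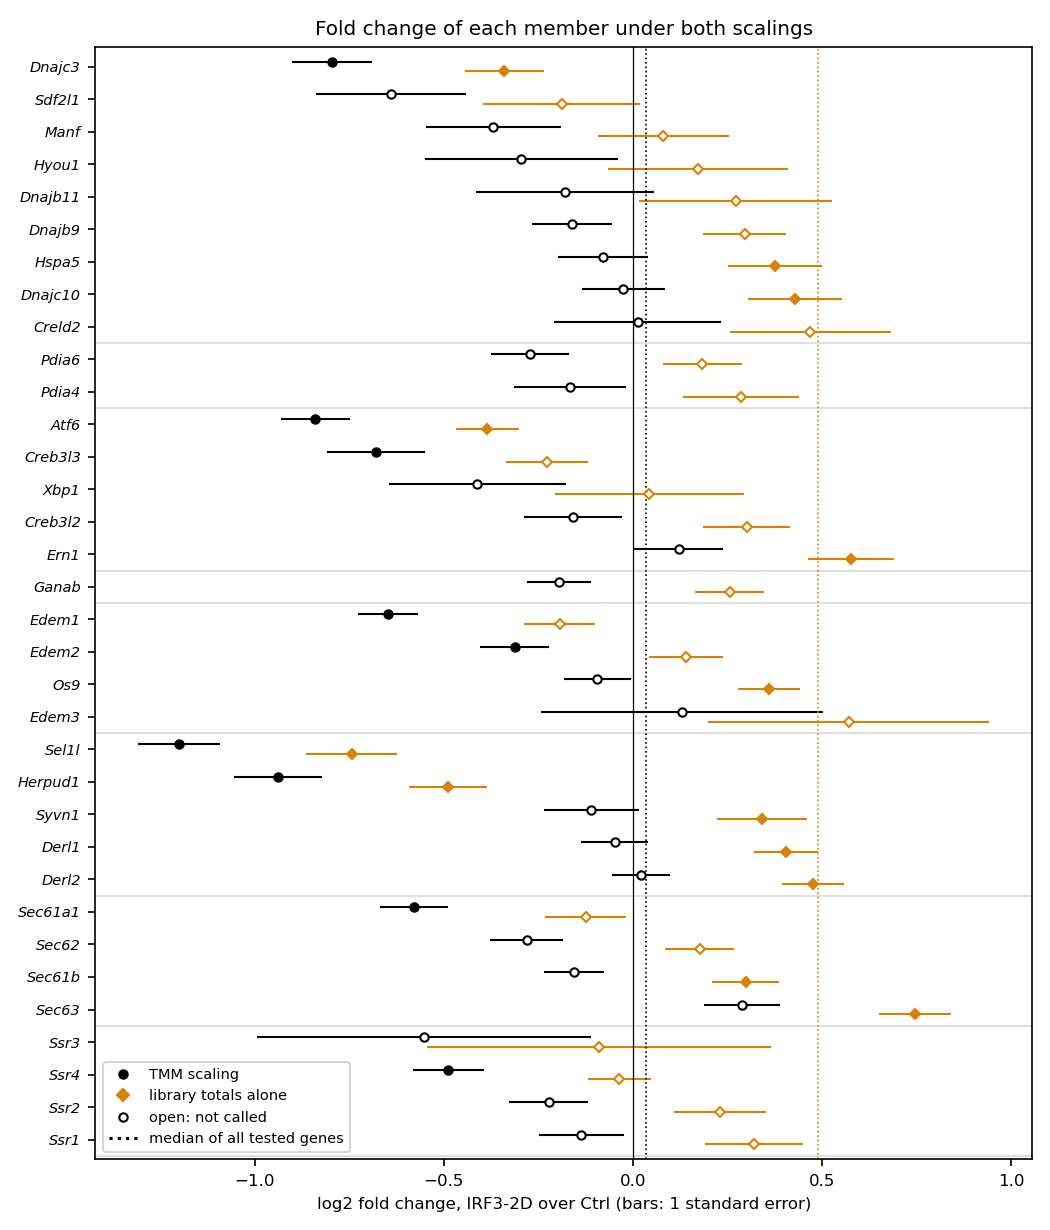
Log2 fold change of IRF3-2D over Ctrl (x axis) for each tested member, with bars of 1 standard error, under TMM scaling (black) and under library totals alone (orange). Filled marks are called genes and dotted lines the medians of all tested genes, 0.03 and 0.49: Sel1l, Herpud1, Atf6 and Dnajc3 are filled and left of 0 under both scalings.

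Libraries and cell types set the frame for these values. Irf3 itself, the gene of the allele, stood at 49.8 ± 9.35 CPM over the Ctrl libraries and at 120 ± 15.3 CPM over the IRF3-2D libraries (mean ± SD of 3; log2 fold change 1.27, SE 0.16, edgeR adjusted p = 0.00152), as the labels have it. Of 12 hepatocyte markers 9 (75%) had fallen and 1 (8.33%) had risen by the same test, beside 13.1% and 13.2% of all tested genes. Their summed level was 149900 to 194700 CPM in Ctrl and 76130 to 90110 in IRF3-2D. Alb alone had a mean of 118700 CPM in Ctrl and 50830 in IRF3-2D, so the sum mostly follows Alb. Macrophage markers had 4 of 11 tested called higher (36.4%), with sums of 514 to 612 and 924 to 1255 CPM. Endothelial markers had 4 of 8 lower (50%), with sums of 469 to 486 and 302 to 394 CPM. Stellate markers had 1 of 8 lower (12.5%, near the share of all tested genes), with overlapping sums of 164 to 222 and 145 to 205 CPM and Pdgfrb at 0. Plasma and B cell markers, a source of abundant ER transcripts, summed to 4.38 to 11.6 and 8.65 to 12.9 CPM with none of 5 tested called by edgeR, DESeq2 or limma-voom and none at an unadjusted p under 0.05. Sums of cholangiocyte markers were 16.8 to 35.1 and 13.5 to 22.3 CPM, and those of T and NK cells 2.36 to 4.08 and 4.01 to 5.42 CPM. The part of these shifts in the member results was not tested, and in whole liver fewer cells of a type and less RNA per cell cannot be told apart.

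Among the luminal chaperones and their cofactors, 1 of 9 tested members fell and none passed the test upwards. That is 11.1% lower, near the 13.1% of all tested genes. With 9 or fewer tested members in each role, such counts describe single genes and not the step. The gene that fell was Dnajc3 (p58IPK), a BiP co-chaperone that also restrains kinases of translation initiation. Dnajc3 stood at 410, 444 and 379 CPM in Ctrl libraries 1 to 3 and at 262, 226 and 221 CPM in IRF3-2D libraries 1 to 3. Every IRF3-2D library lay far under the lowest Ctrl library. The fall was 1.74-fold (log2 fold change −0.80, SE 0.11, edgeR adjusted p = 0.00213). Dnajc3 lies at chr14:118937976-118981697 on the plus strand of GRCm38 and has 1 annotated transcript in GENCODE M21. The annotation behind the deposited counts is not given, so whether a choice between transcripts enters its value is not known.

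Hspa5, the central ER chaperone and the usual gauge of the unfolded protein response, was not called. It stood at 625, 619 and 543 CPM in Ctrl and 649, 536 and 506 CPM in IRF3-2D libraries. The highest and the lowest of the 6 libraries were both IRF3-2D ones. Its log2 fold change was −0.08 with a 95% interval of −0.36 to 0.20 (edgeR adjusted p = 0.665), and with library totals it was 0.38 and called higher. None of these partners of BiP was called either: Dnajc10, a reductase of the J-domain family, was at −0.03, Dnajb9 at −0.16 and the exchange factor Hyou1 at −0.30 on the log2 scale, all with overlapping groups. Hyou1 rested on 1 library, since Ctrl 2 was at 138 CPM and Ctrl 1 and 3 at 72.9 and 77.3 CPM, and without Ctrl 2 its log2 fold change was 0.06.

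Sdf2l1, a partner of the BiP cycle, was just outside the threshold. Its levels were 35.6, 27.3 and 21 CPM in Ctrl and 20.1, 17.2 and 16.5 CPM in IRF3-2D. The groups did not overlap, but Ctrl spanned a wide range, and the log2 fold change of −0.64 had an SE of 0.20 (edgeR adjusted p = 0.0521, and 0.018 to 0.489 over the alternatives). It was called lower by DESeq2, with RLE scaling, at a mean count of at least 50, with the replicate block and without Ctrl 3 (−0.81). Manf, a secreted factor of stressed cells, was at 40.5, 39.95 and 39.1 CPM in Ctrl and 40.04, 24.2 and 28.2 CPM in IRF3-2D. Library IRF3-2D 1 sat at the Ctrl level, and without it Manf was called lower at −0.61 in place of −0.37. Creld2, an ERSE gene with a role in disulfide exchange, was at 0.01 with an SE of 0.22, and Dnajb11, a glycoprotein co-chaperone with 56 to 90 counts a library, at −0.18 with an SE of 0.24.

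Neither tested disulfide isomerase was called. Pdia6 was at 409, 437 and 364 CPM in Ctrl and 364, 323 and 315 CPM in IRF3-2D. The highest IRF3-2D library lay at the level of the lowest Ctrl library, and the log2 fold change was −0.27 (SE 0.10, edgeR adjusted p = 0.0991, called lower only by DESeq2 among the alternatives). Pdia4 overlapped between the groups at −0.17 (SE 0.15).

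The sensors and transcription factors had 2 of 5 tested members lower, Atf6 and Creb3l3, where 13.1% of all tested genes were lower. Atf6, the membrane-bound factor released by cleavage in the Golgi, was at 153, 178 and 162 CPM in Ctrl and 87.5, 90.6 and 97.1 CPM in IRF3-2D. The IRF3-2D libraries were close together and well apart from Ctrl. The fall was 1.79-fold (log2 fold change −0.84, SE 0.09, edgeR adjusted p = 0.000924), at chr1:170704674-170867771 on the minus strand.

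Creb3l3 (CREBH), the liver relative of Atf6 that also drives lipid and Fgf21 genes, stood at 328, 398 and 393 CPM in Ctrl and 219, 210 and 269 CPM in IRF3-2D. No IRF3-2D library reached the lowest Ctrl library. It was 1.60-fold lower (log2 fold change −0.68, SE 0.13, edgeR adjusted p = 0.00885), and with library totals it was at −0.23 and not called. Its relative Creb3l2 was at −0.16 (SE 0.13) with overlapping groups.

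Ern1, the kinase and nuclease that splices Xbp1 messenger RNA, was not called. It was at 167, 177 and 138 CPM in Ctrl and 161, 176 and 188 CPM in IRF3-2D, a log2 fold change of 0.12 with a 95% interval of −0.16 to 0.40. The groups overlapped. Xbp1, the factor that Ern1 activates, had 66 to 97 counts a library. Its levels of 5.39, 5.80 and 7.58 CPM in Ctrl and 4.98, 4.81 and 4.33 CPM in IRF3-2D did not overlap, and its log2 fold change was −0.41 with an SE of 0.23 (edgeR adjusted p = 0.24). The table gives counts per gene, so spliced and unspliced Xbp1 were not analysed here. The listed counts may also leave out some of its transcripts, so its level is uncertain.

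Of the genes that handle sugar-tagged chains, the recognition step of ERAD held 2 lower members of 4 tested, where 13.1% of all tested genes were lower. These were Edem1 and Edem2, mannosidase-like proteins that mark chains for removal. Edem1 was at 229, 217 and 223 CPM in Ctrl and 151, 139 and 137 CPM in IRF3-2D. Both groups were narrow and lay far apart. It fell 1.57-fold (log2 fold change −0.65, SE 0.08, edgeR adjusted p = 0.00153), at chr6:108828641-108859356 on the plus strand, and was not called with library totals (−0.19).

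Edem2 had 82.8, 77.9 and 68.2 CPM in Ctrl and 62.9, 59.5 and 61.9 CPM in IRF3-2D. The gap between the groups was narrow. Its log2 fold change of −0.31 (SE 0.09, edgeR adjusted p = 0.0435) lost its call without Ctrl 1 (−0.25), Ctrl 2 (−0.30), IRF3-2D 1 (−0.34), IRF3-2D 2 (−0.29) or IRF3-2D 3 (−0.33), and with limma-voom, no filter, the replicate block or library totals, where it was at 0.14. Edem3 had 26 to 62 counts a library and an SE of 0.37, too wide to place it. The lectin Os9, which hands chains to Sel1l, was at 361, 380 and 338 CPM in Ctrl and 329, 324 and 358 CPM in IRF3-2D, overlapping, at −0.09 (SE 0.09). Ganab, the catalytic subunit of glucosidase II in the folding cycle, was at 342, 316 and 305 CPM in Ctrl and 274, 274 and 293 CPM in IRF3-2D. Its groups did not overlap, and it was not called in edgeR (log2 fold change −0.20, SE 0.08, adjusted p = 0.135) but was called lower by DESeq2.

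The complex that moves chains back across the membrane held the largest falls among the members, with 2 of 5 tested called lower, beside 13.1% of all tested genes. Sel1l, the adaptor that stabilises the ligase Syvn1 and joins it to the substrate receptors, was at 42.6, 48.3 and 53.4 CPM in Ctrl and 19.8, 22.3 and 20.7 CPM in IRF3-2D. The highest IRF3-2D library was far under the lowest Ctrl library. It fell 2.30-fold (log2 fold change −1.20, SE 0.11, edgeR adjusted p = 0.000467). The gene lies at chr12:91806043-91849157 on the minus strand.

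Herpud1 (HERP), a ubiquitin-like membrane protein that recruits Derlins to Syvn1, was at 646, 653 and 649 CPM in Ctrl and 306, 313 and 396 CPM in IRF3-2D. The 3 Ctrl libraries were almost level, and IRF3-2D 3 was the highest of its group. The fall was 1.92-fold (log2 fold change −0.94, SE 0.12, edgeR adjusted p = 0.00158), at chr8:94386438-94395377 on the plus strand.

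Syvn1, the ligase at the centre of the complex, was not called. It was at 97.6, 96.3 and 75.3 CPM in Ctrl and 78.4, 79.0 and 92.0 CPM in IRF3-2D, and the groups overlapped. Its log2 fold change was −0.11 with a 95% interval of −0.41 to 0.18. The channel-forming Derlins overlapped as well: Derl1 was at −0.05 (SE 0.09) and Derl2 at 0.02 (SE 0.08). Derl3, left out of the test for low counts, had 20, 29 and 8 counts in Ctrl and 0, 0 and 3 counts in IRF3-2D. With no filter on low counts edgeR called it lower (adjusted p = 0.0401, at a log2 fold change of −4.38 that depends on the prior count). With the filter kept, Derl3 entered the test when certain libraries were left out. It was then called lower without Ctrl 3 (−4.77) or IRF3-2D 3 (−7.40), and not called without IRF3-2D 1 (−3.85) or IRF3-2D 2 (−3.87).

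In the translocon core 1 of 4 tested members fell, beside 13.1% of all tested genes. Sec61a1, which forms the channel itself, was at 267, 252 and 234 CPM in Ctrl and 173, 173 and 157 CPM in IRF3-2D. All IRF3-2D libraries were clearly under the Ctrl ones. It was 1.5-fold lower (log2 fold change −0.58, SE 0.09, edgeR adjusted p = 0.00394), at chr6:88503579-88518905 on the minus strand, and with library totals it was at −0.12 and not called.

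No other subunit of the translocon core was called. Sec61b, a small subunit of the channel, was at −0.16 (SE 0.08), and 23.5% of its 31-base words also occur in transcripts of other genes, so its counts are uncertain. Sec62 and Sec63 form the gate for chains that enter after their synthesis and lay on opposite sides of 0. Sec62 was at 275, 337 and 293 CPM in Ctrl and 250, 248 and 246 CPM in IRF3-2D, with no overlap (log2 fold change −0.28, SE 0.10, edgeR adjusted p = 0.0731), and was called lower by DESeq2, with upper-quartile scaling and without Ctrl 1 (−0.34). Sec63 was at 281, 345 and 291 CPM in Ctrl and 374, 377 and 369 CPM in IRF3-2D, the only tested member with all IRF3-2D libraries above Ctrl. Its log2 fold change was 0.29 (SE 0.10, edgeR adjusted p = 0.0741), and it was called higher without Ctrl 2 (0.38), by DESeq2 and with library totals.

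The translocon-associated protein complex, which helps certain chains enter, had 1 of 4 subunits lower, beside 13.1% of all tested genes. Ssr4 was at 73.7, 83.8 and 85.5 CPM in Ctrl and 58.4, 53.3 and 61.5 CPM in IRF3-2D. The groups stood apart, and the fall was 1.40-fold (log2 fold change −0.49, SE 0.09, edgeR adjusted p = 0.0091), at chrX:73787028-73790830 on the plus strand. With library totals Ssr4 was at −0.04 and not called. Ssr1 was at −0.14 (SE 0.11) and Ssr2 at −0.22 (SE 0.10), neither called, and Ssr3 had 17 to 36 counts a library and an SE of 0.44.

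Not every member could be followed. Uggt1 and Erlec1, a folding sensor of glycoproteins and an ERAD lectin, had no row and were not analysed here. Hsp90b1 (GRP94), one of the most abundant ER chaperones, was listed at 0, 0 and 2 counts in Ctrl and 0 in every IRF3-2D library. P4hb, the main disulfide isomerase, was listed at 5, 4 and 4 counts in Ctrl and 5, 5 and 33 in IRF3-2D. Atf6b was listed at 0 in all 6 libraries, where 3 counts would be 0.202 to 0.249 CPM before scaling. Hsp90b1 and P4hb are used by every secretory cell, so the table may leave out transcripts of a member, and these entries give no level. The same may hold for Xbp1, Dnajb11, Edem3 and Ssr3, the tested members with the fewest counts, so their levels and fold changes are uncertain.

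Ratios of 2 members within 1 library do not depend on the scaling between libraries. The 10 pairs were picked after the values were seen, so they are a description. Each sets a member called lower over one not called, so a lower ratio was largely fixed by the choice. The ratio of Sel1l to Syvn1 counts was 0.437, 0.501 and 0.709 in Ctrl and 0.252, 0.282 and 0.225 in IRF3-2D. That of Herpud1 to Hspa5 was 1.03, 1.05 and 1.2 in Ctrl and 0.472, 0.584 and 0.784 in IRF3-2D, and that of Dnajc3 to Hspa5 was 0.655, 0.718 and 0.698 against 0.404, 0.422 and 0.436. In each of these pairs every IRF3-2D library lay below every Ctrl library. Atf6 over Ern1 was 0.912, 1 and 1.18 in Ctrl and 0.544, 0.517 and 0.516 in IRF3-2D. Sec61a1 over Sec63 was 0.950, 0.729 and 0.802 in Ctrl and 0.463, 0.459 and 0.426 in IRF3-2D. Of the 10 pairs 9 did not overlap between the groups, and Ssr4 over Ssr1 did. The ratios show unequal change of 2 transcripts in a library, and not which of them moved.

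**Figure D3:**
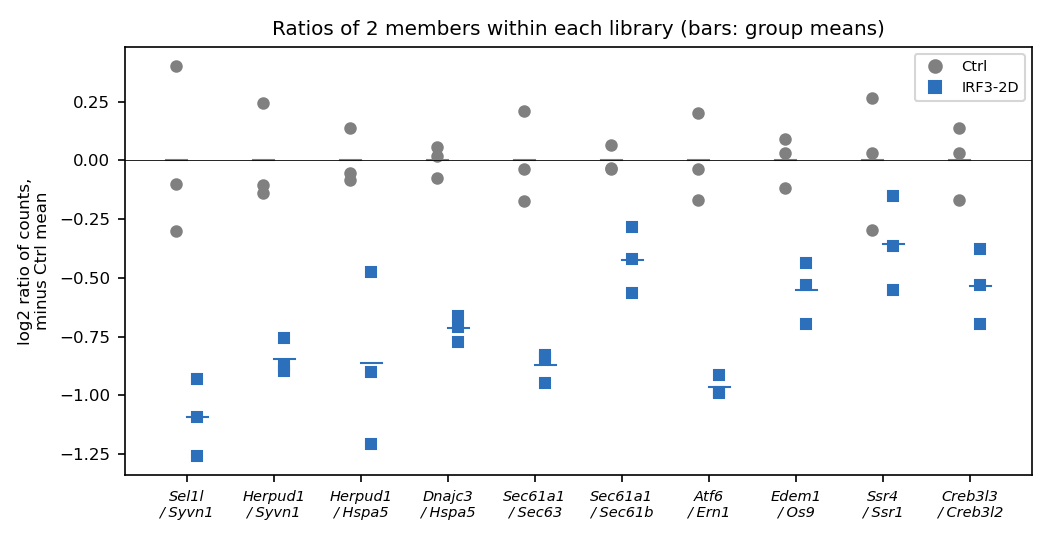
Log2 ratio of the counts of 2 members within each library, minus the Ctrl mean of that ratio (y axis), for 10 pairs (x axis). Each pair was picked as a member called lower over one not called. Grey circles are Ctrl and blue squares IRF3-2D libraries, with short bars at the group means: the groups are apart in 9 pairs, by 1.09 for Sel1l over Syvn1, and overlap for Ssr4 over Ssr1.

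Read beside the promoter elements printed above, falls were called both with and without a match. Of the 5 tested members with an ERSE in the window, Dnajc3 was called lower and Hspa5, Pdia6, Syvn1 and Creld2 were not. Of the 2 members with an ERSE-II, Herpud1 was called lower and Dnajb11 was not. Edem1, Sel1l, Creb3l3, Ssr4 and Edem2, all called lower, had a window with none of the 4 motifs, and Atf6 and Sec61a1 had no window in the table.

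Other genes of the pathway, in lists written by function, moved both ways, where 13.2% of all tested genes were called higher and 13.1% lower. Of 36 tested ER chaperones and oxidoreductases outside the members, 5 (13.9%) were called higher and 7 (19.4%) lower. The thioredoxin-like proteins Selenof (218 to 292 CPM, log2 fold change 0.42, SE 0.08) and Tmx3 (0.58, SE 0.11) were higher, and the isomerases Pdia5 (65.6 to 36.3 CPM, −0.85, SE 0.10) and Fkbp2 (−0.69, SE 0.10) and the vitamin K reductase Vkorc1 (−0.69, SE 0.10) lower. Of 31 genes of N-glycosylation and glycan trimming 1 (3.23%) was higher and 5 (16.1%) lower. Alg10b, which adds the last glucose of the sugar precursor, was at −0.69 (SE 0.08) and Dpm1, a subunit of the mannose donor synthase, at −0.67 (SE 0.10). With library totals Pdia5 was still called lower, and Fkbp2 (−0.24), Vkorc1 (−0.24), Alg10b (−0.23) and Dpm1 (−0.21) were not called.

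ERAD ligases, conjugating enzymes and extraction factors outside the members had 7 of 34 higher (20.6%) and 5 lower (14.7%), beside 13.2% and 13.1% of all tested genes. Vcp, the ATPase that pulls chains out of the membrane, was at 602, 593 and 608 CPM in Ctrl and 428, 424 and 444 CPM in IRF3-2D, a 1.39-fold fall (log2 fold change −0.48, SE 0.07, edgeR adjusted p = 0.00399). With library totals Vcp was at −0.02 and not called. Its small inhibitor Svip fell too (−0.81, SE 0.11, and −0.36 and not called with library totals), while the co-chaperone Dnajb2 was higher (0.47, SE 0.10). Of 30 genes of targeting, insertion and the signal peptidase 2 (6.67%) were higher and 5 (16.7%) lower. The signal peptidase subunit Spcs3 was at −0.67 (SE 0.11), the insertase subunits Mmgt1 at −0.80 (SE 0.12) and Emc6 at −0.48 (SE 0.09), and the tail-anchor ATPase Asna1 at 0.46 (SE 0.10). With library totals Mmgt1 and Asna1 were still called, and Spcs3 (−0.22) and Emc6 (−0.03) were not.

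Unfolded protein signalling outside the members had 3 of 15 tested genes lower (20%, beside 13.1% of all tested genes) and 0 higher in edgeR, with 1 higher at an unadjusted p under 0.05 and 0 by DESeq2 and limma-voom. Of the 15, 9 stood below 0 and 6 above. Atf4 (0.11, SE 0.08), Ppp1r15b (0.10, SE 0.09) and Sesn2 (0.41, SE 0.23) were not called, and were called higher with library totals. Eif2ak3, at 0 to 6 counts, and Asns and Atf3, at 0, were not tested, and Ddit3 had no row. The glutathione-degrading Chac1 was at 9.31, 14.2 and 11.3 CPM in Ctrl and 3.17, 2.57 and 3.28 CPM in IRF3-2D, a 3.85-fold fall (log2 fold change −1.95, SE 0.24, edgeR adjusted p = 0.00147). Trib3, a pseudokinase induced by Atf4 and Ddit3, was at 35.4, 28.8 and 25.7 CPM in Ctrl and 6.60, 7.18 and 13.3 CPM in IRF3-2D, with IRF3-2D 3 the highest of its group and still far under Ctrl (−1.73, SE 0.28). Mbtps1, the Golgi protease that cleaves Atf6 and Creb3l3 proteins, was at −0.43 (SE 0.09), and at 0.02 and not called with library totals. Over all these lists and those of ER export, ER-phagy and secreted proteins, 217 genes were tested, of which 23 were higher and 43 lower, and with library totals 92 were higher and 12 lower. Among all tested genes 13.2% were higher and 13.1% lower, and with library totals 41.7% and 5.29%. In these lists the count of higher genes was 7 without IRF3-2D 1, 9 without Ctrl 3, and 12, 12 and 13 without Ctrl 2, IRF3-2D 3 and IRF3-2D 2.

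**Figure D4:**
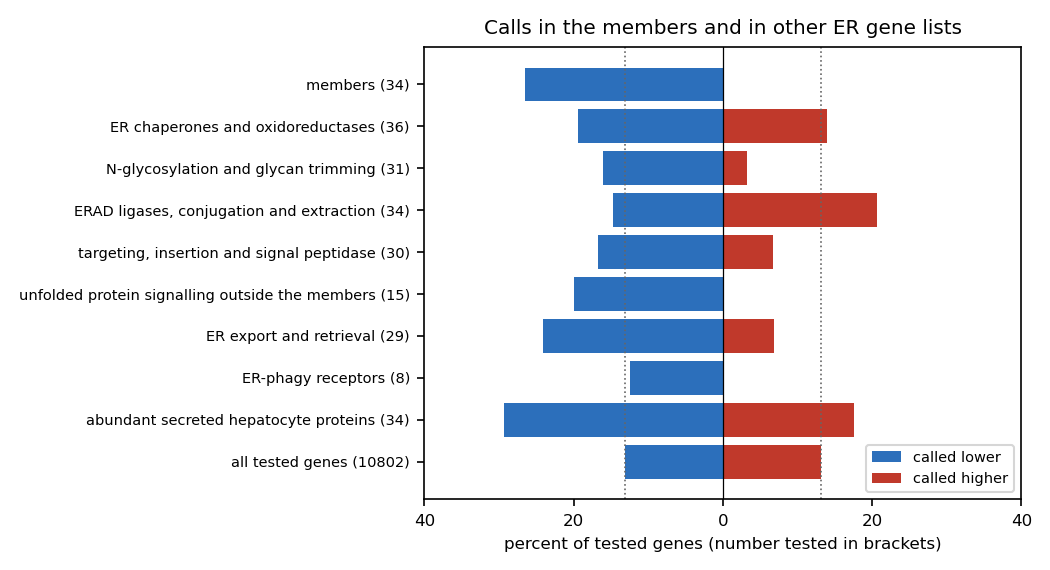
Percent of tested genes called lower (blue, left) and higher (red, right) among the members and in each of the other ER gene lists, with the number tested in brackets and the shares of all tested genes, 13.1% and 13.2%, as dotted lines. The members stand at 26.5% lower and 0% higher, and the secreted proteins at 29.4% lower and 17.6% higher.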

How the data were processed

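Poly-A RNA of 6 liver samples was sequenced from strand-specific libraries, per the labels' protocols. The authors deposited estimated counts per gene, not normalized, and, per the submitters' processing notes, Salmon 1.2.1 and the genome builds GRCm38 and mm10 were involved, in roles that are not stated. Annotation, strand use in counting and filtering: not given in the sources used here. All values were whole numbers and were used as deposited. Groups come from the sample titles, and columns were matched by library name.

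Genes were kept by filterByExpr, and IRF3-2D was compared with Ctrl by the quasi-likelihood test of edgeR 4.0.16 (R 4.3.3) with TMM scaling, group as the only term and Benjamini-Hochberg adjustment at 0.05. The standard error is the log2 fold change divided by the root of F, and intervals are at 95%. The code was tested on simulated data. Alternatives were DESeq2 1.42.0, limma-voom (limma 3.58.1), RLE, upper-quartile and library-total scaling, no filter, a mean count of at least 50, a replicate block, and leaving out each library. Totals differ by library, and a count of 0 allows 0.202 to 0.249 CPM at 3 counts, for counting error only. No 2 replicates agreed within sampling noise.

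Shared 31-base words were counted between GENCODE M21 transcripts of different genes. They made up 23.5% of Sec61b, 10.8% of Dnajb9, 8.60% of Derl1 and 4.09% of Hsp90b1, and at most 1.41% of the other members on the same strand. With both strands read, shares were 15.0% for Ssr2, 12.3% for Hsp90b1, 11.1% for Sec62, 7.37% for Sec61a1 and 7.25% for Manf, which matters only if strand was not used in counting. The members, lists and tests were chosen with earlier results of these data known. All members are named. Of each other list, up to 3 called genes in each direction with the smallest adjusted p are named where the call held with every library left out in turn. For unfolded protein signalling, some uncalled and untested genes are named as well. Member proteins were not analysed here.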

Additional observations from a re-analysis of the deposited data

How the results depend on the processing

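Of the 9 members called lower, Sel1l, Herpud1, Atf6 and Dnajc3 were called under all 14 alternatives, Creb3l3, Edem1, Sec61a1 and Ssr4 under all but library totals, and Edem2 under 5. Leaving out a library gave 8 to 11 lower and 0 to 1 higher members, 851 (without IRF3-2D 2) to 1312 higher and 920 (without IRF3-2D 2) to 1363 lower genes in all, and 7 (without IRF3-2D 1) to 21 higher genes of the other ER lists. DESeq2 called 1 member higher and 13 lower, adding Ganab, Pdia6, Sdf2l1 and Sec62 to the lower ones. It also called more genes in all, 1493 higher and 1729 lower, where edgeR called 1426 and 1418. Library totals gave 4500 higher and 571 lower genes, 9 higher and 4 lower members with a median of 0.24 (all genes 0.49), and 92 higher and 12 lower genes of the other lists. Deviations from the group means had correlations of 0.0855, −0.0716 and 0.0671 between same-numbered libraries, and of −0.114 to 0.0537 between differently numbered ones. With 3 libraries per group, these values cannot tell whether the numbers pair libraries. The replicate block gave 1038 higher and 1128 lower genes, 9 lower and 0 higher members, and 15 higher genes of the other lists.

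Signs turned with library totals for Hspa5 (0.38), Hyou1 (0.17), Dnajb9 (0.30), Dnajb11 (0.27), Dnajc10 (0.43), Manf (0.0803), Pdia4 (0.28), Pdia6 (0.18), Xbp1 (0.0431), Creb3l2 (0.30), Ganab (0.26), Edem2 (0.14), Os9 (0.36), Syvn1 (0.34), Derl1 (0.40), Sec61b (0.30), Sec62 (0.18), Ssr1 (0.32), Ssr2 (0.23), Mbtps1 (0.0237) and Surf4 (0.0137). Near 0, they turned for Creld2 (DESeq2 −0.0168, RLE −0.0164, upper quartile −0.00565), Derl2 (DESeq2 −0.00796, RLE −0.00795), and with a library left out for Creld2 (−0.183 without Ctrl 3 and −0.164 without IRF3-2D 1, up to 0.164), Derl2 (−0.0115 without Ctrl 1, up to 0.038), Dnajc10 (0.0543 without Ctrl 1 and 0.0151 without IRF3-2D 3, down to −0.11), Edem3 (−0.0845 without Ctrl 3 and −0.0766 without IRF3-2D 3, up to 0.335) and Hyou1 (0.0587 without Ctrl 2, down to −0.461). With library totals the values of all genes shift up by a similar amount (their median from 0.03 to 0.49), so genes not far below 0 turn sign. Why the other signs turned was not tested. Edem3 and Ssr3 gave no value at a mean count of at least 50, where they were filtered out. Counts were lowest in Xbp1, Dnajb11, Edem3 and Ssr3, with standard errors of 0.23 to 0.44, while Hyou1 (0.26) and Creld2 (0.22), with more counts, had errors near the lower end of that range. The listed counts may miss transcripts of a gene.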

Other observations

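Past the folding step, the genes that carry cargo out of the ER had 2 of 29 tested called higher (6.9%) and 7 lower (24.1%). Of all tested genes 13.2% were called higher and 13.1% lower. Lman2, a lectin that ferries glycoproteins between ER and Golgi, was at 258, 290 and 264 CPM in Ctrl and 131, 118 and 135 CPM in IRF3-2D, a 2.11-fold fall (log2 fold change −1.08, SE 0.09, edgeR adjusted p = 0.00038) that also held with library totals (−0.63). Lman1, the export receptor of coagulation factors, was at −0.66 (SE 0.09) and the cargo receptor Surf4 at −0.44 (SE 0.08). With library totals neither was called, and Surf4 was at 0.01. Of 8 ER-phagy receptors, which lead pieces of ER to the lysosome, 1 (12.5%) was lower and 0 higher in edgeR (1 higher at an unadjusted p under 0.05, 1 by DESeq2 and 0 by limma-voom). That gene was Retreg1, at 447, 455 and 462 CPM in Ctrl and 298, 306 and 345 CPM in IRF3-2D (−0.52, SE 0.09), and it was at −0.07 and not called with library totals.

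Genes of the cargo itself were called in both directions, with 6 of 34 tested abundant secreted proteins higher (17.6%) and 10 lower (29.4%). Beside them, 13.2% of all tested genes were higher and 13.1% lower. With library totals 14 of these genes were called higher and 5 lower, where 41.7% and 5.29% of all tested genes were. Trf, which encodes transferrin, stood at 10560 ± 2773 CPM in Ctrl libraries and 3188 ± 179 CPM in IRF3-2D libraries (mean ± SD of 3), a 3.31-fold fall, and Itih4 fell from 88.6 ± 13.3 to 26.8 ± 2.31 CPM. Serpina1a, an elastase inhibitor gene with close copies in the genome between which reads may be split, was at −0.89 (SE 0.10). Hp, which encodes haptoglobin, was at 2262 ± 235 CPM in Ctrl and 4551 ± 414 CPM in IRF3-2D (log2 fold change 1.01, SE 0.11, edgeR adjusted p = 0.00108), and Ttr, which encodes transthyretin, was also higher (0.84, SE 0.14). Hp and Ttr were higher, and Trf, Itih4 and Serpina1a lower, under both scalings.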
